A study of Mus musculus with 2 samples.

Results

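The members are a ligand and its receptor, Il33 (interleukin 33) and Il1rl1 (interleukin 1 receptor-like 1, also called ST2), 2 genes of the 28625 symbols counted. They were found by their symbols in the gene lists, and their raw unique molecular identifiers (UMIs, counted transcript molecules) were read in every cell, then summed by cell class and library. Both genes had been picked because earlier work on these files had shown them in stromal cells, the connective tissue cells of the muscle. Their levels by class and library are therefore a description, with no test. The study profiled single cells of the Tibialis Anterior, a muscle of the lower leg, from mice of strain C57B/6 aged 12 weeks. There was 1 library of uninjured muscle and 1 of muscle taken 1 d after an intramuscular injection of 1.2% BaCl, a barium salt used to make muscle fibres degenerate. The treatment text of both samples names this injection, so the groups rest on the sample titles alone. The comparison addressed how cells of the muscle differ 24 hours after the injury. With 1 library per group no difference between the groups has a replicate check, so no p-values are given. The intervals are at 95% and reflect the counting of UMIs, not differences between animals.

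Interleukin 33 is kept in the nucleus of barrier and stromal cells and is set free when cells are damaged, which is why it is called an alarmin. Outside the cell it binds the receptor encoded by Il1rl1, which pairs with the shared chain encoded by Il1rap and signals through the adaptor Myd88, Irak kinases and Traf6 to NF-kappaB. In injured muscle the ligand is known from fibro-adipogenic progenitors (FAPs), the interstitial fibroblasts of the tissue, and the receptor is best known on mast cells, group 2 innate lymphoid cells and regulatory T cells.

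Il33 (ENSMUSG00000024810) lies on mm10 at chr19:29925114-29960718 on the plus strand, and Il1rl1 (ENSMUSG00000026069) at chr1:40429570-40465415, also on the plus strand. On chromosome 1 the order of genes along the plus strand is Il1r2, Il1r1, Il1rl2, Il1rl1, Il18r1 and Il18rap, a row of receptor genes of the interleukin 1 family. GENCODE lists Il1rl1 transcripts that end at 40446723 and 40448148 and others that end near 40465415. The short ones encode the soluble decoy form and the long ones the membrane receptor, and the counts per gene do not tell them apart. RefSeq has 2 start sites for each gene, and libraries that read the 3′ end of a transcript do not show which start was used. The 250 bases upstream of each start (RefSeq, build GRCm38.p6, plus strand) are shown because they are the proximal regions of the ligand and of the receptor whose counts differed so much between the libraries. Capitals mark the letters TATAAA or AGATAA, the latter on either strand, so that TTATCT marks a match on the other strand.
Il33 start 1: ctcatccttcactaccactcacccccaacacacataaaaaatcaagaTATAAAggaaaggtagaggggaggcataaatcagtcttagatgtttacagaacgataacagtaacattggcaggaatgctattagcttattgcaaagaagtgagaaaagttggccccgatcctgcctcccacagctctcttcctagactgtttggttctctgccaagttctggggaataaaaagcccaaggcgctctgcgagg
Il33 start 2: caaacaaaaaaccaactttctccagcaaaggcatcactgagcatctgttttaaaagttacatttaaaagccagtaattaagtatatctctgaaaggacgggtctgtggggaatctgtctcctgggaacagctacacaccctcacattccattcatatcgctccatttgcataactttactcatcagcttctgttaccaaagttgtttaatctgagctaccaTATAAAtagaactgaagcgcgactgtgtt
Il1rl1 start 1: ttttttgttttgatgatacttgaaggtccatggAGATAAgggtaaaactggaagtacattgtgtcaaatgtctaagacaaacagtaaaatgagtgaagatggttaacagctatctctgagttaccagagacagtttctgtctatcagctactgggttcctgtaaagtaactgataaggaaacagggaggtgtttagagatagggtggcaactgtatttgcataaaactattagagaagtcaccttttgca
Il1rl1 start 2: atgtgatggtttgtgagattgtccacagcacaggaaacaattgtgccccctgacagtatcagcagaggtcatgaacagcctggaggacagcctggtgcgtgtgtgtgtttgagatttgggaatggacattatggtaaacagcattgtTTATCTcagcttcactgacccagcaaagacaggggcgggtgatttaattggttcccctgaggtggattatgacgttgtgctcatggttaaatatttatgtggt
The windows are chr19:29924863-29925112 and chr19:29945540-29945789 for Il33, and chr1:40429320-40429569 and chr1:40439379-40439628 for Il1rl1. TATAAA, the TATA box letters, occurred in both Il33 windows, 203 bases before the first start and 29 bases before the second, and in neither Il1rl1 window. The motif of GATA factors, with the letters AGATAA, occurred once in each Il1rl1 window, 217 bases before the first start and 103 bases before the second, and in neither Il33 window. Neither TGANTCA, the AP-1 motif, nor the NF-kappaB consensus was found in any of the 4 windows. Over 32851 promoter windows of the same length, TATAAA was found in 12.4%, AGATAA in 9.99%, TGANTCA in 6.75% and the NF-kappaB consensus in 3.90%, each searched on both strands. These are matches of letters only.

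The deposited barcodes numbered 5581 in the uninjured library (22994502 UMIs, median 3237 per barcode) and 4489 in the injured library (39014762 UMIs, median 7282), of which 5139 and 4260 were kept. Cells of the injured library thus hold more UMIs each, which raises the share of cells with a UMI of any gene, so shares are also given for cells thinned to 1500 UMIs, fewer than any kept cell holds. The libraries also differed in sex-linked transcripts, with 17744 and 0 UMIs of Xist and 0 and 4698 UMIs of 4 Y-linked genes in the uninjured and the injured library. Injury and this difference cannot be told apart here. The libraries had 33 barcodes in common, and leaving these barcodes out moved none of the member values beyond its interval. Of 31 clusters, 4 were named FAP-like (775 uninjured and 421 injured cells) and 3 tenocyte-like (443 and 155 cells), tenocytes being the fibroblasts of tendon. All 10 FAP markers were detected in FAP-like cells of both libraries, but their sum was 66052 CPM (UMIs of a gene or list per 1000000 UMIs of the class) in uninjured and 9877 CPM in injured cells. All 10 tenocyte markers were detected in tenocyte-like cells of both, at 31627 and 20071 CPM in sum, and the FAP markers summed to 52466 and 20533 CPM in these cells. Different clusters held these classes in the 2 libraries. Clusters 7, 16 and 27 held 455, 254 and 65 of the 775 uninjured FAP-like cells and cluster 12, led by Cxcl5, Aldh1a2 and Hmga2, held 402 of the 421 injured ones, while clusters 14 and 19 held 282 and 158 of the 443 uninjured tenocyte-like cells and cluster 20 all 155 injured ones. A cluster of 1 library may reflect that library.

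The ligand was a stromal transcript in both libraries. In uninjured muscle, FAP-like cells held 311 Il33 UMIs in 173 of 775 cells, or 22.3% (19.4% to 25.4%) of cells, at 92.8 CPM (82.8 to 103.7). CPM is used here to compare classes and libraries for 1 gene, not the level of 1 gene with that of another. Uninjured tenocyte-like cells held 62 UMIs in 39 of 443 cells, at 26.3 CPM (20.2 to 33.7). The level in FAP-like cells was 3.53 times (2.68 to 4.71) that in tenocyte-like cells of the same library. In injured muscle, FAP-like cells held 517 UMIs in 137 of 421 cells, or 32.5% (28.1% to 37.2%), at 78.5 CPM (71.9 to 85.6). Injured tenocyte-like cells held 116 UMIs in 34 of 155 cells, or 21.9% (15.7% to 29.3%), at 57.7 CPM (47.6 to 69.2). FAP-like cells were again the higher of these 2 classes, by 1.36 times (1.11 to 1.68). Both classes together held 78.2% of the Il33 UMIs of uninjured cells kept and 95.5% of those of injured cells kept.

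In the order of levels, uninjured FAP-like and injured FAP-like cells came first, followed by injured and then uninjured tenocyte-like cells, and every other class with at least 50 cells had a lower level. The intervals of the first 2 overlapped, and those of the other neighbours in this order did not. These intervals count UMIs, of which many can come from few cells. Without the 5 cells with the most Il33 UMIs in each, the 4 levels in this order were 84.5, 64.4, 29.1 and 19.4 CPM. The third then lay inside the interval given above for uninjured tenocyte-like cells, so the separation of neighbours depends on few cells. In the uninjured library the remaining classes ran from 0 UMIs in 251 satellite cell-like cells to 5.45 CPM (1.12 to 15.9) in monocyte and macrophage-like cells. Satellite cells are the muscle stem cells, and their 0 UMIs allow up to 3.29 CPM and a share of up to 1.20%. Endothelial-like cells were at 5.23 CPM (3.86 to 6.93), muscle fibre-like at 5.18, glial-like at 4.25, lymphatic endothelial-like at 3.76, erythroid-like at 1.37 and pericyte and smooth muscle-like cells at 0.617 CPM. The intervals of these low levels overlapped, apart from those of endothelial-like against pericyte and smooth muscle-like cells. That of lymphatic endothelial-like cells, on 1 UMI, ran up to 21.0 CPM and so also overlapped that of uninjured tenocyte-like cells. In the injured library, monocyte and macrophage-like cells held 10 Il33 UMIs in 2487 cells (0.545 CPM), endothelial-like cells 2 in 456, and neutrophil-like and pericyte and smooth muscle-like cells none in 83 and 139, which allow shares of up to 3.61% and 2.16%. The injured cells of unnamed clusters held 15 Il33 UMIs, all in the 7 cells of cluster 30 described next. Blood cells, which should lack the gene, give the background share of cells with a UMI. It was 0.402% of injured monocyte and macrophage-like cells at a median of 6992 UMIs, against 32.5% of FAP-like cells at a median of 13668. In the uninjured library it was 2.26% (0.468% to 6.45%) at a median of 3760 UMIs, against 22.3% of FAP-like cells at a median of 3906.

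**Figure D1:**
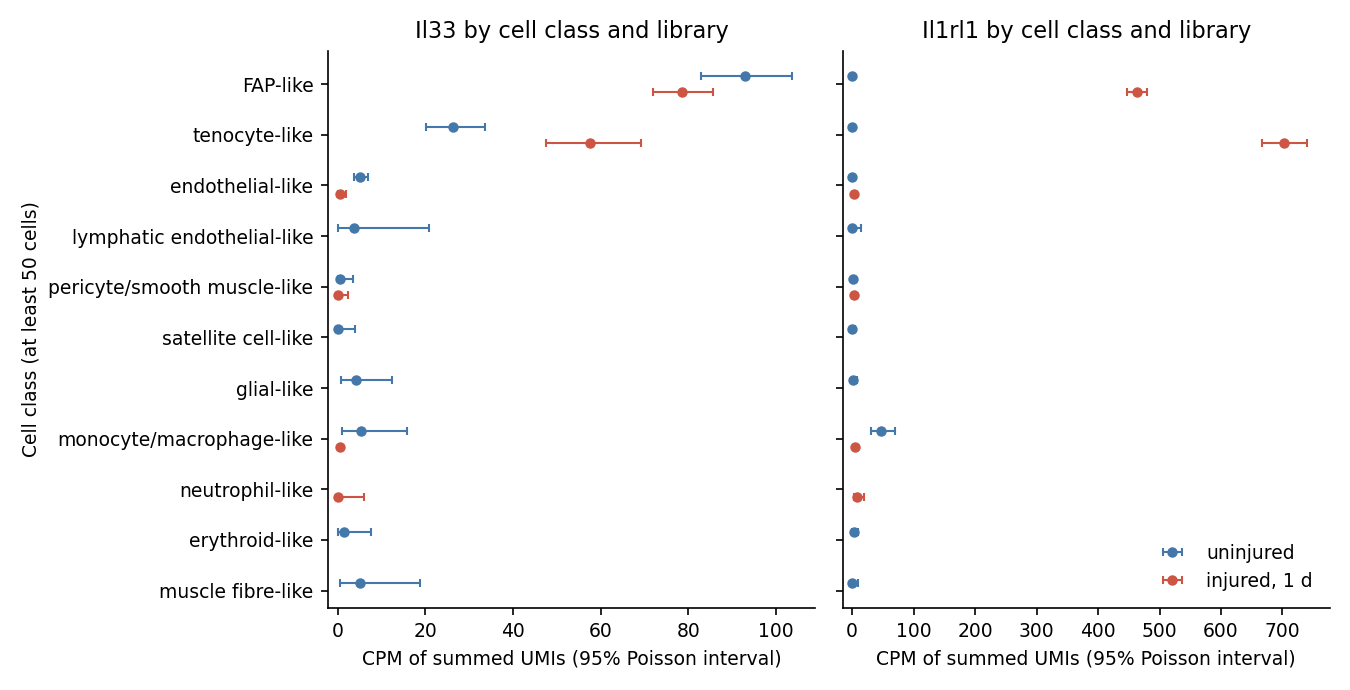
Summed UMIs as CPM of Il33 (left) and Il1rl1 (right) in each cell class with at least 50 cells, 1 point per library with its 95% Poisson interval, on linear axes. Il33 lay between 26.3 and 92.8 CPM in the stromal classes of both libraries, and Il1rl1 reached 464 and 702 CPM in the stromal classes of the injured library only, with 0 and 1 UMIs in those of the uninjured library.

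Within uninjured stroma, Il33 was uneven. FAP-like cluster 16, led by Mrgprg and with Pi16 among its leading genes, held 185 UMIs in 102 of 254 cells (40.2%), at 174 CPM (150 to 201). Pi16 marks progenitor-like fibroblasts found across tissues, and cluster 16 is called the Pi16 cluster here. FAP-like cluster 7, with Smoc2 and Gdf10 among its leading genes, was larger and lower, with 59 UMIs in 43 of 455 cells (9.45%), at 29.3 CPM (22.3 to 37.8). The Pi16 cluster was thus 5.94 times (4.41 to 8.11) as high as the Smoc2 cluster. The small FAP-like cluster 27, led by Col9a2 and Coch, held 67 UMIs in 28 of 65 cells (43.1%), at 247 CPM (191 to 313), 1.42 times (1.06 to 1.88) the Pi16 cluster. Thinned to 1500 UMIs per cell, the shares with an Il33 UMI were 21.7%, 3.84% and 27.6% in clusters 16, 7 and 27. Cluster 7 thus differed from clusters 16 and 27 beyond counting error. Clusters 16 and 27 differed from each other in level, while the intervals of their shares, 34.1% to 46.5% and 30.8% to 56.0% as deposited, overlapped. Cluster 7 held 455 of the 775 cells of the class but only 59 of its 311 UMIs.

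Uninjured tenocyte-like cells were uneven as well. Cluster 14, with Chad and Comp among its leading genes, held all 62 Il33 UMIs of the uninjured class, in 39 of 282 cells, at 39.4 CPM (30.2 to 50.5). Cluster 19, led by Col22a1, a collagen of the muscle to tendon junction, held none in 158 cells, which allows up to 3.91 CPM. That limit lies far below the interval of cluster 14. An unnamed cluster of 27 uninjured and 7 injured cells, led by Gjb2, Gjb6 and Krt19, had 42 UMIs in 17 of the 27 cells, at 339 CPM (244 to 458), and 15 UMIs in 5 of the 7. No other uninjured cluster had a higher Il33 level. Of the 10 FAP markers 7 were present in it, Dcn, Col1a1 and Smoc2 among them, and it stayed unnamed because it held under 50 cells and none of its 10 leading genes is a FAP marker. Sub-clusters were singled out after their values had been seen.

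**Figure D2:**
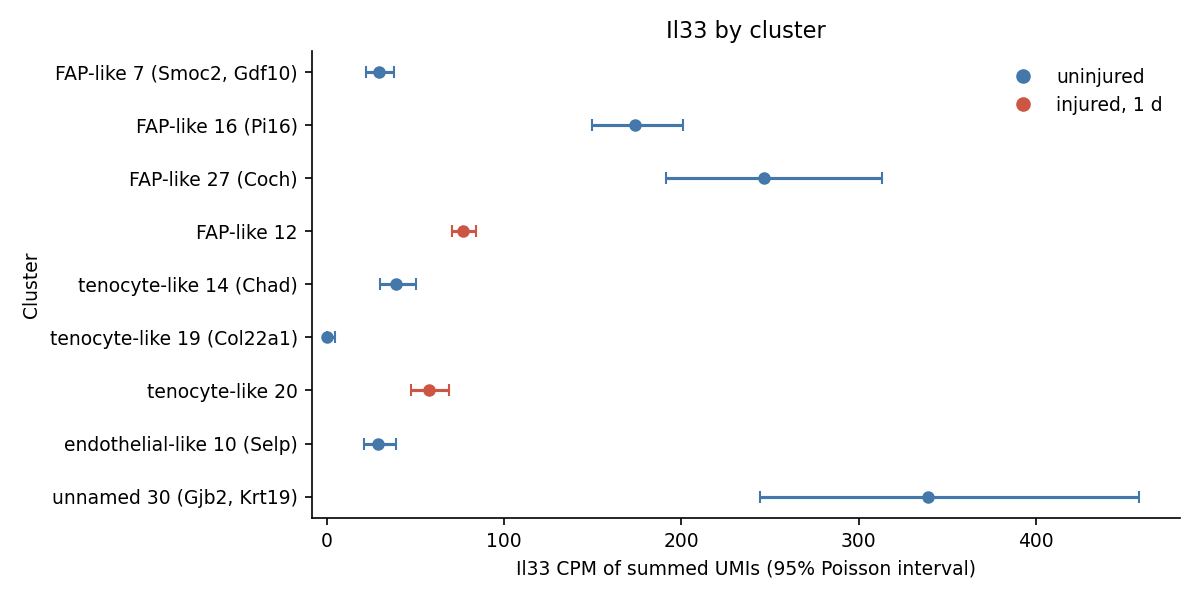
Il33 level of 9 clusters, as CPM of the cluster with 95% Poisson intervals, coloured by the library shown. Among uninjured FAP-like clusters the Pi16 and Coch clusters sit at 174 and 247 CPM, above the Smoc2 cluster at 29.3, and tenocyte-like cluster 19 sits at 0.

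Between the libraries no direction can be given for Il33 in FAP-like cells. The level was 92.8 CPM uninjured and 78.5 CPM injured, a ratio of 0.846 (0.734 to 0.978), or a log2 ratio of -0.24. The median log2 ratio over the 11313 genes tested in this class was -0.26, and scaling the class sums by a trimmed mean (TMM) turned the Il33 log2 ratio to 0.11. The share of cells with a UMI went from 22.3% to 32.5% as deposited and from 11.7% to 8.87% in cells thinned to 1500 UMIs. In tenocyte-like cells the ratio was 2.19 (1.60 to 3.03), with thinned shares of 2.92% and 6.36%. There, 1 injured cell carried 30 of the 116 UMIs, and without the 5 cells of each library with the most Il33 UMIs the ratio was 1.498. Since a different cluster held the class in each library, a change within a cell type and a different mix of cells cannot be told apart.

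Endothelial-like cells of uninjured muscle held 48 Il33 UMIs, 44 of them in cluster 10, led by Selp and Ackr1, which mark venules. That cluster had an Il33 UMI in 33 of 366 cells, or 9.02% (6.29% to 12.4%), at 29.2 CPM (21.2 to 39.2). This level lay near those of uninjured tenocyte-like cells (26.3 CPM) and of FAP-like cluster 7 (29.3 CPM). The other 2297 endothelial-like cells held 4 UMIs (0.521 CPM), a ratio of 56.0 (20.4 to 215). In the injured library the Selp cluster held 2 UMIs in 54 cells and the other endothelial-like cells none in 402. For the whole class the level was 9.39-fold lower (2.46 to 79.7) in the injured library, which rests on its 2 UMIs. Different clusters held this class too, as cluster 13 held 347 of the 456 injured cells and 30 of the 2663 uninjured ones.

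The receptor was nearly absent from uninjured stroma and abundant in injured stroma. Not 1 Il1rl1 UMI was found in the 775 uninjured FAP-like cells, which allows a level of up to 0.895 CPM and a share of up to 0.387% of cells. The 421 injured FAP-like cells held 3051 UMIs in 178 cells, or 42.3% (37.5% to 47.2%), at 464 CPM (447 to 480). The level was at least 518-fold higher against the limit of 3 counts. Uninjured tenocyte-like cells held 1 UMI in 443 cells, and that cell was 1 of the 3 uninjured cells in cluster 20, which otherwise held the injured tenocyte-like cells. The 155 injured tenocyte-like cells held 1413 UMIs in 57 cells, or 36.8% (29.2% to 44.9%), at 702 CPM (666 to 740), a ratio of 1656 (297 to 65437). Among injured cells the tenocyte-like level was 1.52 times (1.42 to 1.61) the FAP-like level, while the shares of cells overlapped in their intervals and were 23.8% and 23.3% for FAP-like and tenocyte-like cells once thinned. Without the 5 cells with the most UMIs in each class the levels were 399 CPM in FAP-like and 469 CPM in tenocyte-like cells.

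Together the 576 injured stromal cells held 97.4% of the 4585 Il1rl1 UMIs in the 4260 injured cells kept. The other injured classes with at least 50 cells had a UMI in 2.41% (endothelial-like) to 4.82% (neutrophil-like) of cells at medians of 5827 to 8313 UMIs. These levels, from 2.59 CPM in pericyte and smooth muscle-like cells to 8.08 CPM in neutrophil-like cells, are the background beside which the stromal values stand. Monocyte and macrophage-like cells, the most numerous, held 76 UMIs in 68 of 2487 cells, at 4.14 CPM. Markers of the cells best known for the receptor were also counted in injured stroma. In FAP-like cells 3 of 8 mast cell markers were detected with 24 UMIs in all (3.65 CPM), with Cma1, Mcpt4, Cpa3, Fcer1a and Ms4a2 at 0, and in tenocyte-like cells 3 of 8 with 25 UMIs (12.4 CPM), with Cma1, Tpsb2, Cpa3, Fcer1a and Ms4a2 at 0. In the uninjured library the same list had 7 UMIs (2.09 CPM) and 1 UMI (0.424 CPM) in these classes. Of 10 markers of group 2 innate lymphoid and regulatory T cells, 4 were detected in injured FAP-like cells (222 UMIs, 33.7 CPM in sum, 121 CPM uninjured). In injured tenocyte-like cells 2 were detected (117 UMIs, 58.2 CPM, 109 CPM uninjured). Rora and Ikzf2 were detected in both injured classes, and Il7r and Tnfrsf4 in FAP-like cells only. Gata3, Foxp3, Icos, Klrg1, Il2ra and Ctla4 were at 0 in both injured classes. What part such cells have in the stromal receptor counts was not tested.

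In uninjured muscle the few Il1rl1 transcripts were mostly in monocyte and macrophage-like cells. Of 36 UMIs in cells kept, 26 were in monocyte and macrophage-like cells, all in cluster 18, led by Retnla, Mgl2 and Cd163, genes of tissue-resident macrophages. There 22 of 117 cells, or 18.8% (12.2% to 27.1%), had a UMI, at 52.9 CPM (34.5 to 77.5), and no cell of the 117 had a UMI of any of 6 mast cell markers. Endothelial-like cells of that library, at a median of 2796 UMIs against 3797 in cluster 18, had a UMI in 0.0376% of cells. In the injured library cluster 18 held 1 UMI in 45 cells (2.46 CPM). The level of the whole class was 11.4-fold lower (7.01 to 18.0) in the injured library, the opposite direction to the stromal classes. The injured monocyte and macrophage-like cells were mostly of other clusters, with 2442 of 2487 outside cluster 18. Of the 40 uninjured T cell-like cells 2 carried Il1rl1, 4 UMIs in all. Neither had a Cd3e UMI, and 1 of them had 4 UMIs of Gata3, 4 of Il13 and 1 of Il5, genes of group 2 innate lymphoid cells. Klrg1, Areg and Foxp3 had no UMI in either cell and Rora had 1, so no cell type is read from these 2 cells. Barcodes with at least 2 of 6 mast cell markers numbered 1 in the uninjured library, with 3 Il1rl1 UMIs, and 2 in the injured library, 1 of them with 5.

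Receptor transcripts were concentrated in a subset of injured stromal cells. Of the 421 FAP-like cells, 243 had no Il1rl1 UMI, 24 had 1, 58 had 2 to 9 and 96 had at least 10. Those 96 cells held 90.1% of the UMIs of the class, and the highest single cell had 133. Of the 155 tenocyte-like cells, 98 had none, 5 had 1, 20 had 2 to 9 and 32 had at least 10, with a highest cell of 126. In both classes cells with many receptor transcripts therefore stood beside cells with none, and cells with exactly 1 were few. Il33 reached lower counts per cell. In injured FAP-like cells 284 had none, 50 had 1, 74 had 2 to 9 and 13 had at least 10, with a highest cell of 32, and in uninjured FAP-like cells the highest cell had 8. The 42 injured FAP-like cells with the most UMIs of each gene held 69.8% of the Il33 and 60.9% of the Il1rl1 UMIs. Il33 had fewer UMIs per cell, with means of 1.23 and 7.25, which raises such a share. The variance over the mean, which also depends on the level, was 7.82 for Il33 and 31.7 for Il1rl1. No order of concentration is read from these values.

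**Figure D3:**
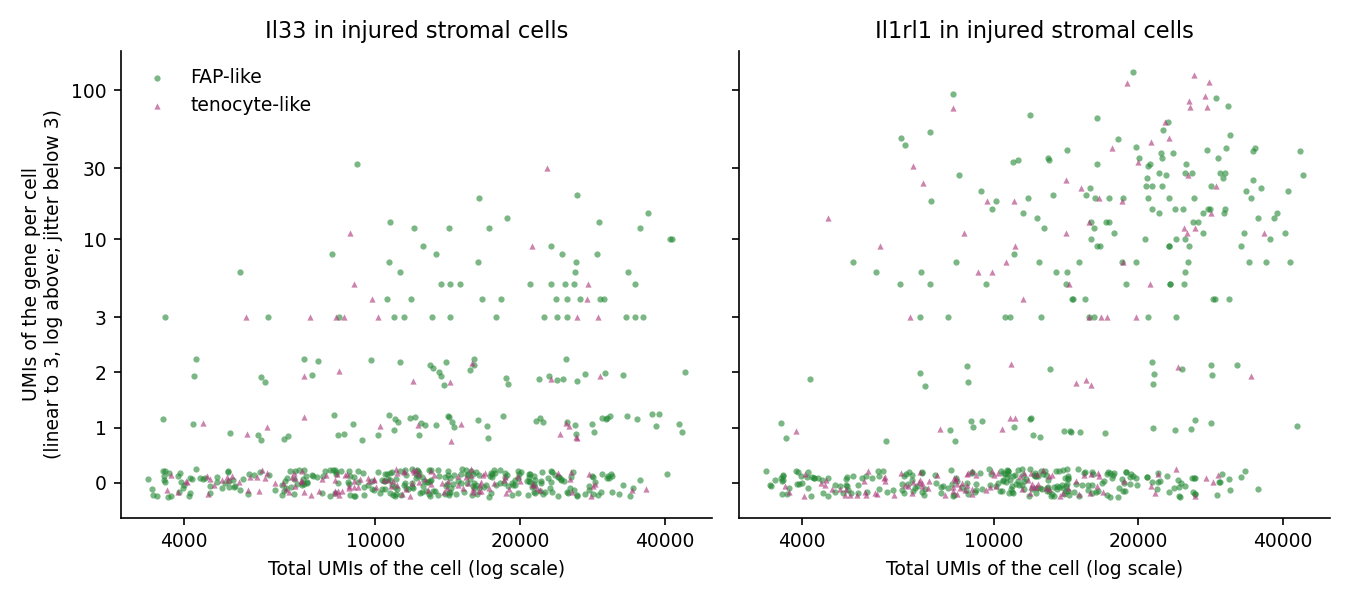
UMIs of Il33 (left) and Il1rl1 (right) in each injured FAP-like (circles) and tenocyte-like (triangles) cell against the total UMIs of that cell, with a vertical axis that is linear to 3 and logarithmic above. Il1rl1 reached 133 UMIs in a FAP-like cell and 126 in a tenocyte-like cell, and many cells of like depth had none.

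In cells as deposited, ligand and receptor were found together about as often as the product of their shares. Of the injured FAP-like cells, 61 had UMIs of both genes, 76 of Il33 alone, 117 of Il1rl1 alone and 167 of neither. The 61 cells are 14.5% (11.3% to 18.2%), beside 57.9 cells given by the product of the 2 shares. A receptor UMI was found in 44.5% (36.0% to 53.3%) of cells with the ligand and in 41.2% (35.4% to 47.2%) of cells without it. In injured tenocyte-like cells 12 had both, 22 Il33 alone, 45 Il1rl1 alone and 76 neither, beside 12.5 cells from the product. Depth moved with these counts. FAP-like cells with both genes had a median of 24974 UMIs and cells with neither 10485. When FAP-like cells were split into 3 groups of 141, 140 and 140 by their total UMIs, a split chosen after seeing the data, 8, 13 and 40 cells had both, beside products of 7.04, 15.7 and 42.5 cells. In cells thinned to 1500 UMIs, 1.20% of FAP-like cells had both and the product was 2.12%, and in tenocyte-like cells these were 1.22% and 1.48%. These thinned shares stand for few cells and the difference was not tested. No uninjured FAP-like or tenocyte-like cell had both genes. The level of Il33 was 45.8 CPM in injured FAP-like cells with the receptor and 118 CPM in those without. The shares with an Il33 UMI were 34.3% and 31.3%. The cells with the receptor were deeper, at medians of 20330 and 11259 UMIs, which raises their share. No order is therefore read from the shares, and the difference in level was not tested.

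**Figure D4:**
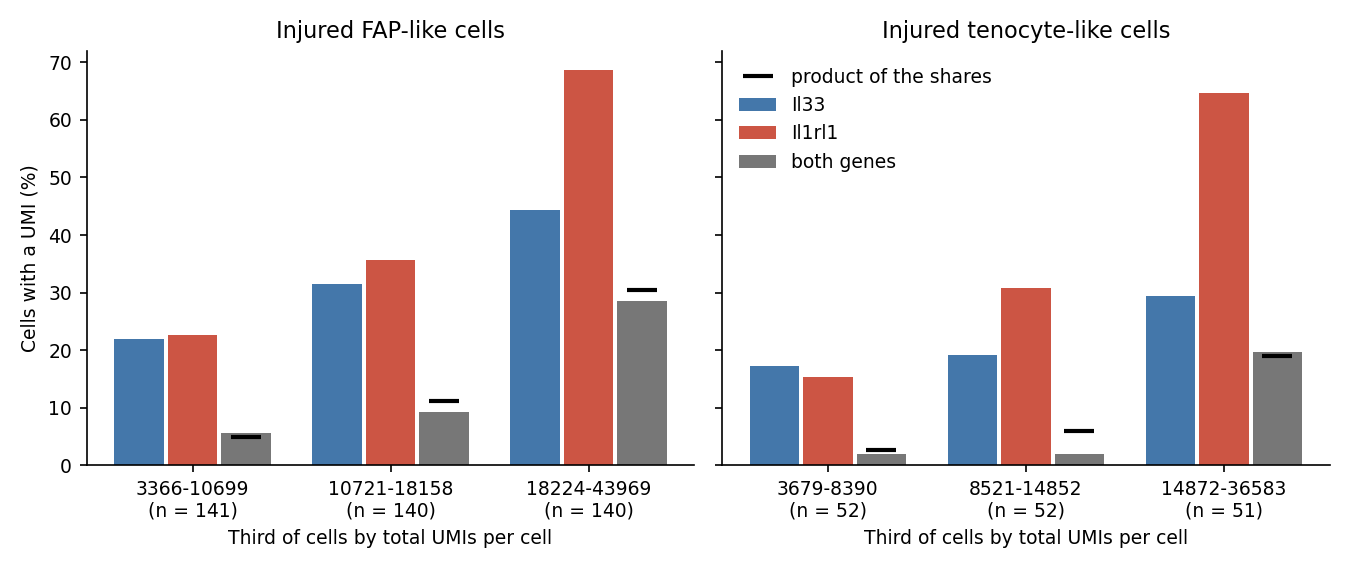
Share of injured FAP-like (left) and tenocyte-like (right) cells with a UMI of Il33, of Il1rl1 and of both, in 3 groups of cells by total UMIs per cell, with black marks at the product of both single shares. The share of FAP-like cells with both genes runs from 5.67% in the group with the fewest UMIs to 28.6% in that with the most, close to the product in each.

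Genes of the receptor complex and its signal relay were mostly at similar levels in both libraries. Genes with at least 20 UMIs over both libraries were tested by size alone, as at least 2-fold higher or lower. Over all 11313 such genes of FAP-like cells, 15.4% were higher and 28.2% lower in the injured library, and over 9626 genes of tenocyte-like cells 9.96% and 22%. Of the 15 relay genes tested in FAP-like cells, 1 was higher, none was lower and the median log2 ratio was -0.31, beside -0.26 over all genes. That 1 was Irak2, a kinase of the relay, with 23 UMIs against 5 and a ratio of 2.34 (0.871 to 7.89). Il1rap, which encodes the signalling partner of the receptor, was low in both libraries, with 8.65 CPM uninjured and 6.99 CPM injured (0.808, 0.497 to 1.33). Myd88, the adaptor, went from 37.3 to 58.0 CPM (1.56, 1.27 to 1.92), and Irak1, Irak4, Traf6 and Map3k7 lay between 0.776 and 1.16 times the uninjured level. Sigirr, an inhibitory relative of the receptor, had 11 UMIs uninjured and 1 injured and was too low to be tested. In tenocyte-like cells 12 relay genes were tested. Myd88 was higher by 2.71 (1.94 to 3.84) and Traf6 by 2.18 (0.807 to 6.44), on 13 and 7 UMIs, and Il1rap was 2.73-fold lower (0.956 to 9.53), on 5 and 16 UMIs, so that only the interval of Myd88 leaves out 1. The median over the 12 was 0.02, beside -0.23 over all genes.

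In single injured FAP-like cells with an Il1rl1 UMI, 12.4% (7.91% to 18.1%) also had an Il1rap UMI and 62.9% a Myd88 UMI, beside 9.05% (5.76% to 13.4%) and 46.9% of cells without. The Myd88 levels of these 2 groups of cells were 58.3 and 57.7 CPM. In injured tenocyte-like cells 2 of 57 receptor-positive cells had an Il1rap UMI. Across classes, Il1rap was highest in glial-like cells of uninjured muscle, at 92.0 CPM, and in neutrophil-like cells of injured muscle, at 30.7 CPM.

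Other ligands and receptors of the interleukin 1 family were tested by the same rule, 7 of 10 in FAP-like and 3 of 10 in tenocyte-like cells. In FAP-like cells 2 were higher and 1 was lower, and in tenocyte-like cells 2 were higher and none lower. Over all genes tested, 15.4% were higher and 28.2% lower in FAP-like cells, and 9.96% and 22% in tenocyte-like cells. Il1b, an inflammatory cytokine, went from 2.69 to 69.9 CPM in FAP-like cells (26.0, 13.6 to 57.3) and stood at 109 CPM in injured tenocyte-like cells. Il1rn, the receptor antagonist, had no UMI in uninjured FAP-like cells and 58 in injured ones, at least 9.84-fold higher, and was likewise higher in tenocyte-like cells, by at least 9.37-fold. In the same injured library Il1b stood at 4204 CPM in monocyte and macrophage-like and 6088 CPM in neutrophil-like cells, and Il1rn at 383 and 483 CPM. Il1b was also at 106 CPM in injured endothelial-like and 98.6 CPM in injured pericyte and smooth muscle-like cells, against 1.20 and 1.23 CPM uninjured. Its higher level was thus not particular to stroma. All 12 monocyte and macrophage markers were detected in injured FAP-like cells, at 210 CPM in sum against 55.8 CPM in uninjured ones. What part such cells or their free transcripts have in the stromal counts of Il1b and Il1rn was not tested. Il18, another alarmin-type cytokine, was 7.20-fold lower (4.95 to 10.7), at 39.4 CPM uninjured and 5.47 CPM injured. Il1r1, the receptor for interleukin 1 that lies on the same chromosome as Il1rl1, had 42.4 CPM uninjured and 69.0 CPM injured in FAP-like cells (1.63, 1.35 to 1.98), and after TMM scaling it passed 2-fold. Il1rl2 was at 11.6 and 11.5 CPM and Il1r2 at 9.55 and 11.2 CPM. Il18r1 and Il18rap, the next genes along the chromosome, had 2 and 4 UMIs in injured FAP-like cells. Of the 5 other genes of the row, Il18r1 and Il18rap were thus too low to be tested, and the other 3 stayed within 2-fold as deposited.

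Proteases known to cut the ligand into more or less active forms were also looked at. In FAP-like cells 6 of 9 were tested, with none higher and 2 lower, beside 28.2% lower over all genes of the class, so that the count is near the background. Casp1 was 3.14-fold lower (1.74 to 5.80) and Prtn3 3.60-fold lower (1.71 to 7.98), on totals of 52 and 34 UMIs. Capn2, a calpain, was the most abundant of the list by UMIs, at 118 and 157 CPM (1.33, 1.18 to 1.495). Ctsg and Elane, proteases of neutrophil granules, had no UMI in FAP-like cells of either library. In tenocyte-like cells 2 were tested and neither was past 2-fold.

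Genes known to respond to NF-kappaB were higher in injured stroma as a list, with 10 of 12 tested genes at least 2-fold higher in FAP-like cells (median log2 ratio 2.41) and 9 of 11 in tenocyte-like cells (median 3.56), and none lower. Over all genes tested, 15.4% were at least 2-fold higher in FAP-like and 9.96% in tenocyte-like cells. The list was put together with earlier results of these data known. Its 4 members with the highest injured FAP-like level were Ccl2, Cxcl1, Ccl7 and Cxcl5, which attract monocytes and neutrophils. Ccl2 went from 62.4 to 3501 CPM (56.1, 49.0 to 64.6), Cxcl1 from 265 to 2185 CPM (8.25, 7.71 to 8.84) and Ccl7 from 99.4 to 1778 CPM (17.9, 16.05 to 20.02). Cxcl5 had no UMI in uninjured FAP-like cells and 8278 in injured ones, 1258 CPM, at least 1405-fold higher. Cxcl5 was largely a transcript of FAP-like cells, with 19.4 CPM in injured tenocyte-like and 9.49 CPM in injured monocyte and macrophage-like cells, whereas Ccl2 and Ccl7 were higher in monocyte and macrophage-like cells, at 6630 and 6644 CPM. Of the other alarmins tested, Hmgb1 (449 and 639 CPM) and Tslp (26.0 and 36.2 CPM) stayed within 2-fold in FAP-like cells. S100a8 and S100a9 were higher, at 47.4 and 26.0 CPM, beside 8169 and 3877 CPM in injured neutrophil-like cells, and neutrophil markers summed to 79.5 CPM in injured FAP-like cells against 2.09 CPM in uninjured ones. The part of neutrophil transcripts in these values was not tested. Of 7 type 2 and repair effectors only Egfr was high enough to be tested in either class, and it stayed within 2-fold in both.

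**Figure D5:**
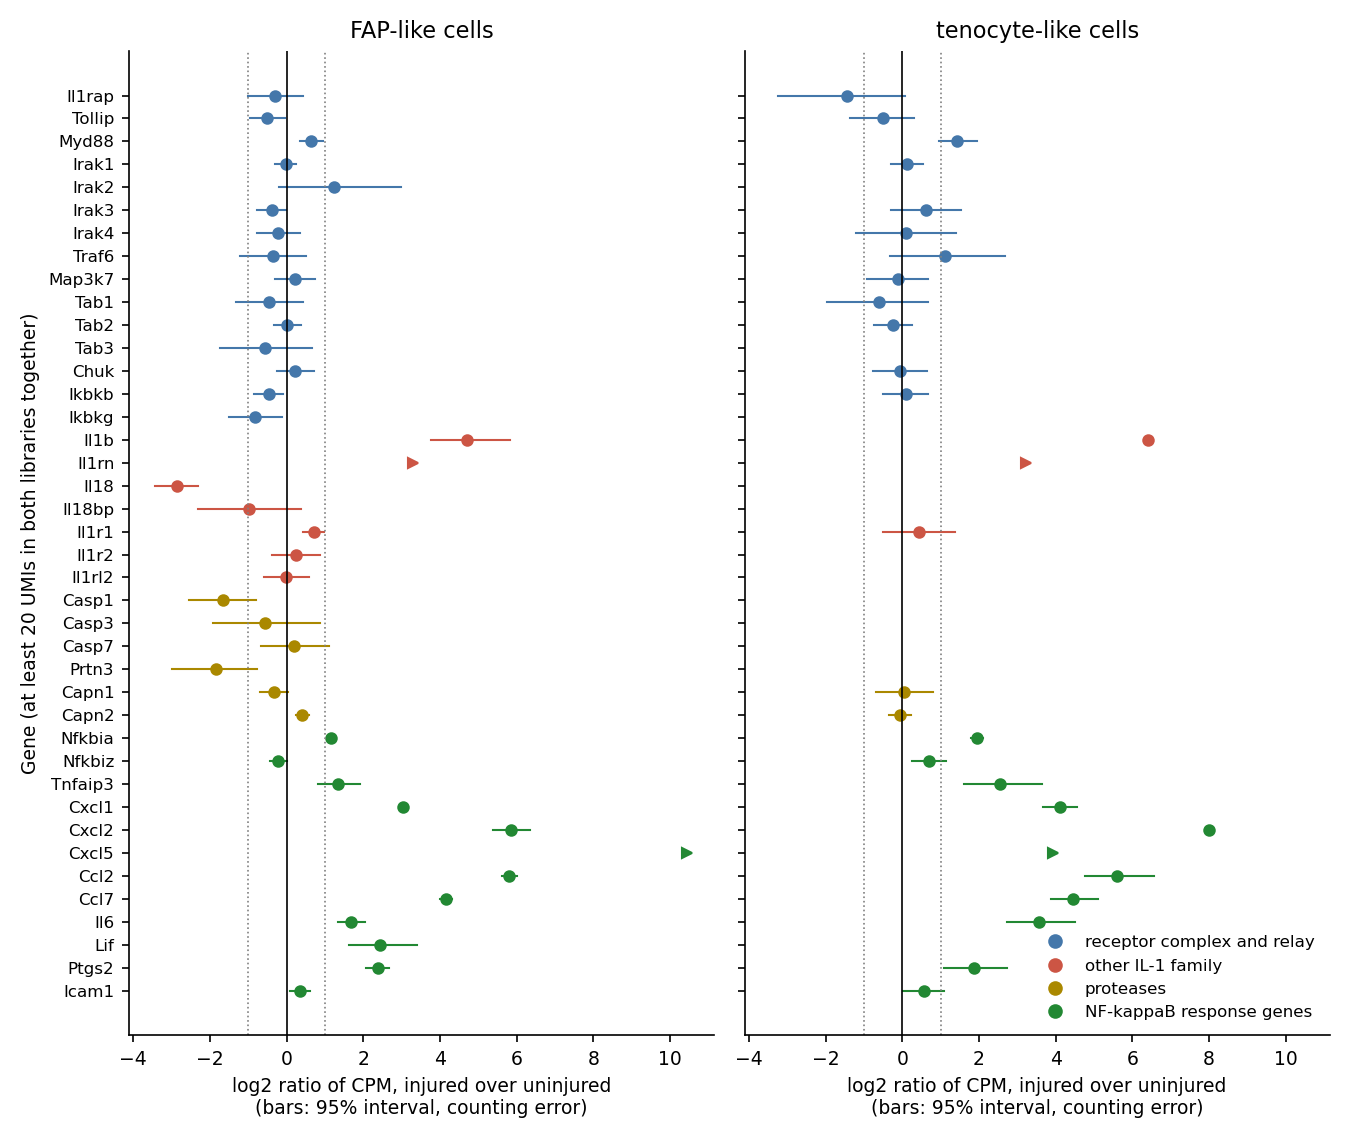
Log2 ratio of injured over uninjured CPM for each tested gene of 4 lists in FAP-like (left) and tenocyte-like (right) cells, with 95% counting intervals (none drawn where a count was under 3), dotted lines at 2-fold and triangles for lower bounds where the uninjured count was 0. Receptor complex and relay genes lie near 0, with medians of -0.31 and 0.02, and NF-kappaB response genes lie mostly to the right, with medians of 2.41 and 3.56.

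The injured FAP-like cells with the receptor were then set beside those without it, within 1 library, in a split chosen after the values had been seen. The 178 cells with an Il1rl1 UMI had a median of 20330 UMIs and the 243 without 11259. Cluster 12 held 177 of the 178 receptor-positive cells. All 13 injured cells of cluster 7, which held mostly uninjured cells, were among those without the receptor. What part such cells have in the differences between the 2 groups was not tested. Over 9889 genes tested between the 2 groups, 1.54% were at least 2-fold higher and 6.93% lower in receptor-positive cells. None of 14 relay genes, 12 NF-kappaB response genes or 6 interleukin 1 family genes passed 2-fold. Ccl2 was 1.66 times (1.61 to 1.70) and Cxcl1 1.33 times (1.29 to 1.38) as high in receptor-positive cells. Tslp, another alarmin of stromal cells, was at 46.6 CPM in receptor-positive and 23.7 CPM in receptor-negative cells (1.97, 1.48 to 2.64), and it passed 2-fold after TMM scaling. Of 9 genes of Pi16-low interstitial fibroblasts 6 were lower in receptor-positive cells, among them Mgp, an inhibitor of calcification (8.01-fold, 7.32 to 8.77), Apod (3.51-fold, 3.26 to 3.78) and Cxcl14 (2.58-fold, 2.49 to 2.68). Of 8 genes of the Pi16-positive state 3 were lower, Pi16 itself by 3.58-fold (2.86 to 4.51), and 1 was higher, Wnt2, a secreted Wnt ligand, by 2.30 (1.79 to 2.99). Hmga2, a chromatin protein of growing cells, at 3.06 (2.50 to 3.77) and Penk, which encodes enkephalin precursors, at 2.96 (2.64 to 3.33) had the highest ratios among genes with at least 200 UMIs and were picked after their values had been seen. Larger differences went the other way. Saa3, an acute phase protein gene, was 46.7-fold lower (8 against 313 UMIs) and the haemoglobin gene Hbb-bt 13.1-fold lower (22 against 241 UMIs) in receptor-positive cells. The intervals count UMIs, of which many can come from few cells. Against uninjured FAP-like cells, injured ones as a whole had 7 of the 8 Pi16-positive and 8 of the 9 Pi16-low genes at least 2-fold lower (6 and 7 after TMM scaling), with medians of -3.06 and -2.08 on the log2 scale. Over all genes tested between the libraries in this class, 28.2% were at least 2-fold lower.

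Some genes of the Pi16-positive state, Pi16 among them, were at least 2-fold higher in cells with the ligand in both libraries, again in splits chosen after values had been seen. Among uninjured FAP-like cells, Pi16 stood at 3502 CPM in the 173 cells with an Il33 UMI and at 1268 CPM in the 602 without (2.76, 2.62 to 2.91), and Wnt2 and Anxa3 of the same list were 2.47 (1.83 to 3.34) and 2.31 times (2.09 to 2.56) as high. In all 4 of 8 genes of that list (5 after TMM scaling) were at least 2-fold higher and none lower, beside 2.78% higher and 5.36% lower of 9527 genes. Mgp was 4.64-fold lower (4.33 to 4.98). Among injured FAP-like cells Pi16 was 2.50 times (2.05 to 3.07) as high in the 137 cells with the ligand as in the 284 without, at 100.2 and 40.0 CPM. Of the 8 genes 3 (2 after TMM scaling) were higher and none lower, beside 2.08% and 2.19% of 9889 genes. Pi16 had 261 and 159 UMIs in these cells, and cluster 12, with 402 of the 421 cells, held 333 of them. The remaining cells belonged to clusters 7, 16 and 27, and 2 of the 3 injured cells of the Pi16 cluster 16 had Il33. What part these few cells have in the injured Pi16 ratio was not tested. Transcripts of other cell types also moved with the ligand, by more than Pi16 did. Among genes with at least 200 UMIs, the haemoglobin genes Hbb-bt (25.2-fold, 248 against 15 UMIs), Hbb-bs (21.3-fold), Hba-a2 (11.4-fold) and Hba-a1 (9.39-fold) had the highest ratios in injured cells with Il33. In uninjured cells with Il33, Ccl21a, a chemokine of lymphatic endothelium, was 49.0-fold (31.9 to 79.3) and Hbb-bs 3.87-fold (3.65 to 4.11) higher. The part of such cells or their transcripts in these splits was not tested. Il18 went with Il33 in both libraries. In uninjured FAP-like cells 24.9% of cells with Il33 and 7.97% of cells without had an Il18 UMI, at 70.5 and 29.5 CPM (2.39, 1.66 to 3.42), with median depths of 4132 and 3857.5 UMIs. In injured cells the ratio was 2.14 (1.05 to 4.45), on 21 and 15 UMIs. Tslp was 2.89-fold lower (2.07 to 4.11) in injured cells with Il33 than in those without, at 16.9 and 48.8 CPM, while the shares of cells with a Tslp UMI were 16.8% and 18.0%. The relay and NF-kappaB response genes did not differ by 2-fold in either split, apart from Tab1, 2.62-fold lower (1.04 to 7.84) in injured cells with Il33, on 6 and 24 UMIs.

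Across the 16 groups of class and library with at least 50 cells, the genes most like each member were ranked by Pearson's correlation of log2(CPM + 1) among 12895 genes with at least 50 UMIs. The groups share 2 libraries and their depths, so these are descriptions. The 8 genes most like Il33 were Lum (0.927), Myoc, Dcn, Smoc2, AW551984, Slc4a4, Emx2 and Cpxm1 (0.877). Lum, Dcn and Smoc2, matrix genes of fibroblasts, had also served to name the FAP-like clusters. The 8 most like Il1rl1 were Tk1 (0.877), Gm12603, Hmga2, Dscc1, Dusp9, Asf1b, Serpina3m and Cenph (0.818). Tk1, Dscc1, Asf1b and Cenph are known from DNA replication and cell division, and Tk1 went from 0 CPM in uninjured to 18.99 CPM in injured FAP-like cells. Ranked by Spearman's correlation, 3 of the 8 genes for Il33 and none of the 8 for Il1rl1 stayed among the first 8. Il33 and Il1rl1 themselves correlated at 0.432.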

How the data were processed

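The deposited files hold raw counts of UMIs per gene and barcode for 2 libraries, made by the authors with Cell Ranger 2.1.1 against an mm10 build, per the submitters' processing notes, from cells of protease-digested muscle loaded on 10x Single Cell 3′ v2 chemistry, per the labels' protocols. The depth was 22994502 and 39014762 UMIs. Barcodes under 200 genes (178 and 64) or above 20% mitochondrial UMIs (18 and 4) were left out. The automatic Scrublet threshold marked 1 barcode in each library, so it had not worked, and the top-scoring 249 and 161 barcodes (4.46% and 3.59%, a share set from the barcode number) were dropped. The kept cells were clustered with scanpy 1.11.5 and leidenalg 0.10.2 (2000 variable genes without Il33 and Il1rl1, 30 principal components, 15 neighbours, resolution 1). A cluster was named from the marker lists by its mean marker score (at least 3 markers present, score at least 0.5, called mixed where a second list reached 70% of the best), and a cluster stayed unnamed where another list had more markers among its 10 leading genes, or where it held under 50 cells with no own marker among them. The former left cluster 11 (5 uninjured and 401 injured cells, with H2-Ab1 and Cd209a leading) out of the monocyte and macrophage class, and its injured cells held 18 Il1rl1 UMIs. This naming rule was changed 2 times after cluster names had been seen, and the rebuilt names need not be the authors'. UMIs were summed per class and library as CPM, with exact Poisson intervals, Clopper-Pearson intervals for shares and exact conditional intervals for ratios, and a count of 0 was raised to 3 for limits. Intervals and limits cover counting error only, and thinning to 1500 UMIs was computed as an exact expectation. Genes with at least 20 UMIs were called at 2-fold. The calling steps were tested on simulated class sums with counting error only. Variation between cells was not simulated, so that test does not cover it.

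The members and lists were chosen with earlier results of these data known. Members of the relay, interleukin 1 family and protease lists could be named freely, and of the other lists the 4 with the highest CPM in injured FAP-like cells, plus the 8 genes most like each member. Genes of clusters and splits named beyond that were picked after their values were seen. No amino acid sequence was used here. Alternatives covered the cell classes, the clustering genes, doublets, depth, the denominator, the scaling, the count minimum and the measure of likeness.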

Additional observations from a re-analysis of the deposited data

How the results depend on the processing

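No paired analysis was possible because each group has 1 library, and for the same reason no replicate could be left out. Of 194 alternative values for 24 results, 155 kept the reported value within its counting interval or its count within 1.5 times, 38 moved and 1 reversed. The cause of the moves was not tested. Leaving out the 5 cells with the most UMIs, the barcodes present in both libraries, and TMM scaling of the Il33 ratios were chosen after seeing the data.

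The Il33 ratio in FAP-like cells reversed to 1.08 after TMM scaling and was 0.625 when each library was clustered alone. With each library clustered alone, uninjured FAP-like Il33 was at 124 CPM and in 27.002% of cells, and the lower bound of the Il1rl1 ratio in FAP-like cells was 332. With cells at or above 3333 UMIs, the lowest injured barcode, these were 80.8 CPM and 400 (399.8). Without the 5 cells with the most UMIs, Il33 was at 64.4 CPM in injured FAP-like, 19.4 in uninjured tenocyte-like and 29.1 in injured tenocyte-like cells, the tenocyte-like Il33 ratio was 1.498, Il1rl1 was at 399 CPM in FAP-like and 469 in tenocyte-like cells, and the bound was 446. When cells were classed one by one from their markers, Il1rl1 was at 425 and 662 CPM in injured FAP-like and tenocyte-like cells and the bound was 464. With no doublets left out, tenocyte-like Il1rl1 was at 659.6 CPM and the bound was 552.

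Thinned to 1500 UMIs, and equally as a mean of per-cell values, Il33 was at 106 CPM in uninjured FAP-like cells, Il1rl1 at 427 and 531 CPM in injured FAP-like and tenocyte-like cells, and the bound was 477. Thinned shares with Il33 were 11.7% and 8.87% in uninjured and injured FAP-like and 2.92% and 6.36% in tenocyte-like cells, those with Il1rl1 23.8% and 23.3%, and those with both 1.20% and 1.22%. With members of as few as 1 UMI, 2 pathway members were lower in tenocyte-like cells in place of 1. Of the 8 genes most like Il33, 3 remained by Spearman's correlation and 4 with a pseudocount of 10, and of those most like Il1rl1, 0 remained by Spearman's correlation. Depth limits the shares and every gene with few UMIs.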
